A study of Mus musculus with 8 samples.

Results

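Heterotrimeric G proteins carry the signal of a receptor in the plasma membrane to enzymes inside the cell, and RGS proteins (regulators of G protein signalling) shorten that signal. In this account, 47 genes of these families were described in sorted pituitary gonadotropes of the mouse. They were 12 alpha subunits without the stimulatory subunit Gnas, 5 beta subunits, 10 gamma subunits and 20 RGS genes, chosen by gene symbol from the 55523 entries of the count table, and each of the 47 symbols was found. The rule went by symbol, and the list was drawn up with earlier results of these data known. Gonadotropes were taken as EGFP-positive cells of pituitary from Ad4BP-BAC-EGFP mice with fluorescence-activated cell sorting. In this transgenic line a bacterial artificial chromosome with the gene of NR5A1, also called Ad4BP, drives EGFP, so the sort collects cells in which that regulatory sequence is active. All 8 samples carried the transgene, the labels give no other allele or treatment, and the samples formed 2 groups, female replicates 1 to 4 and male replicates 1 to 4. The age of the mice and the number of glands in a sample were not given in the sources used here. Male replicate 1 was excluded by the study and is shown apart, and a replicate is written by its number below (male 1, female 3), so the sexes were compared as 4 female against 3 male samples.

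An alpha subunit binds GTP when a receptor is activated and separates from the beta and gamma subunits, and both parts of the complex then act on effectors. Alpha subunits of the Gq class activate phospholipase C beta, those of the Gi/o class inhibit adenylyl cyclase, Gnal stimulates adenylyl cyclase, and the G12 class is a further group. RGS proteins bind active alpha subunits and speed up GTP hydrolysis, which ends the signal. In gonadotropes, the receptor of gonadotropin-releasing hormone is known to act largely through Gq and G11 and to drive the release and synthesis of LH and FSH.

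The RGS genes with the highest levels in these samples were Rgs4, Rgs2 and Rgs5, small proteins of the R4 subfamily, and all 3 lie on chromosome 1. In the GENCODE M21 annotation of GRCm38, Rgs5 was at chr1:169655501-169695813 on the plus strand and Rgs4 at chr1:169741477-169747642 on the minus strand. No annotated gene overlapped either, and 45663 bases separated them. Rgs2 was at chr1:143999338-144004161 on the minus strand. Of the 20 RGS genes, 10 were on chromosome 1. The 250 bases before the RefSeq start of each of the 3 genes (GRCm38.p6) are printed here because these genes carry most of the RGS signal of the samples and because Rgs4 and Rgs5 had the highest log2 fold changes of the members between the sexes. The GENCODE model of Rgs2 starts a few bases inside its window. Capitals mark CCAAT, read on either strand, and TATAAA.

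Rgs4, chr1:169747643-169747892, minus strand: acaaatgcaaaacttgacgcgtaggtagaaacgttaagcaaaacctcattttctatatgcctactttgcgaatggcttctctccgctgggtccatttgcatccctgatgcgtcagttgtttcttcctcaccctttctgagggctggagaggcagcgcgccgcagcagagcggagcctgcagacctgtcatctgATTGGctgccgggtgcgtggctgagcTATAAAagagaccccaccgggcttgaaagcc

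Rgs5, chr1:169655251-169655500, plus strand: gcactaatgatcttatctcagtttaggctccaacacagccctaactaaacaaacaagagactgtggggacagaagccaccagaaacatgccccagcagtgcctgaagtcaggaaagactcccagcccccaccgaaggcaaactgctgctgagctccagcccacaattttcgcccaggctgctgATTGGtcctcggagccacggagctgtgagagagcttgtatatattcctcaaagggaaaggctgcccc

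Rgs2, chr1:144004150-144004399, minus strand: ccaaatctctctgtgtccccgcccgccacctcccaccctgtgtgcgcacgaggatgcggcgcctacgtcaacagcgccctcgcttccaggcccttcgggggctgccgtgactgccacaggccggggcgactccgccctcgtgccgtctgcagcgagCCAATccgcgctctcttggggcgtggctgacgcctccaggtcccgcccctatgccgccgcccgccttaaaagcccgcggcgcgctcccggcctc

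The letters CCAAT were found in all 3 windows, on the strand of the gene at position -94 of Rgs2 and on the other strand at -57 of Rgs4 and -67 of Rgs5, counted from the start of transcription to the first base of the match on the printed strand. TATAAA was found at -31 of Rgs4 and in neither of the others. Rgs2 held GGGCGG, the GC box, 4 times and the other 2 windows did not hold it. Promoter sequence was matched to 35 of the 47 members, by 45 windows of 250 bases, and motifs were searched on both strands of these and of all 32851 windows of the RefSeq table. CCAAT was present in 10 of the 45 member windows (9 genes) and in 33.8% of all windows, TATAAA in 5 member windows (Rgs3, Rgs4, Rgs9 and Gnb5) and 12.4% of all windows, and GGGCGG in 23 member windows (21 genes) and 32.7% of all windows. AAGGTCA, a sequence that NR5A1 is known to bind, was present in 4.08% of all windows and in 1 member window, of Gnb5. TGACGTCA, the cyclic AMP response element, was present in 1.55% of windows and in no member, and TGAGTCA, the AP-1 site, in 4.46% of windows and in 2 member windows, of Rgs12 and Rgs17. No motif contains another, and a match describes the letters of a window, not a site in use.

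Depth was between 18774578 and 31302588 counts per sample. Before TMM scaling, the floor of 3 counts corresponded to between 0.0958 and 0.160 CPM (counts of a gene scaled to a common library total), which covers counting error only. The other CPM values are given after TMM scaling, where 3 counts of Gng8 in female 3 came to 0.0918 CPM. The sorted cells had the 5 defining genes of gonadotropes (Lhb, Fshb, Cga, Gnrhr and Nr5a1), whose summed CPM was 21515 to 34770 in females, 67400 to 76488 in males 2 to 4 and 28571 in male 1. Single genes of the list differed from this sum. Nr5a1, whose regulatory sequence drives the EGFP of the sort, was at 863 to 1263 CPM in females, 590 to 794 CPM in males 2 to 4 and 16.4 CPM in male 1, so this marker was low in the library labelled male 1, while Lhb there was at 9385 CPM. Lhb overlapped between the sexes. Transcripts of other cell types were also counted. The 2 somatotrope genes summed to 12413 to 58215 CPM in females, 64453 to 143750 CPM in males 2 to 4 and 30309 CPM in male 1, and the 2 thyrotrope genes to 21.5 to 85.0, 236 to 340 and 84.0 CPM. Malat1 and Neat1, transcripts held in the nucleus, summed to 12222 to 15225 CPM in females, 7713 to 9961 CPM in males 2 to 4 and 111010 CPM in male 1. The 4 stromal genes summed to 101 to 143 CPM in females, 94.8 to 99.2 CPM in males 2 to 4 and 89.96 CPM in male 1. In these 5 lists of the 15 examined the females did not overlap males 2 to 4, their part in the differences given below was not tested, and none of the markers in them was at 0. In sorted bulk samples, fewer cells of a type and less RNA per cell cannot be told apart.

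To compare the members with each other, CPM was divided by the exon length of the gene in kilobases. In each of the 7 samples 38 of the 47 members had at least 1 CPM, and they were 11 of 12 alpha, 4 of 5 beta, 8 of 10 gamma and 15 of 20 RGS genes. Gng8, Gng13, Rgs14, Rgs18 and Rgs22 did not pass the filter on low counts, and their counts give no fold. Gng8 was at most 0.173 CPM, Rgs22 at most 0.571 CPM, Rgs14 at most 0.622 CPM and Rgs18 at most 0.857 CPM in any of the 8 samples. Gng13 was counted in female 3 only, at 3.15 CPM, and was 0 in the other 7 samples. Gnb5, Gna15, Rgs10 and Rgs13 were below 1 CPM in at least 1 of the 7 samples but were tested.

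**Figure D1:**
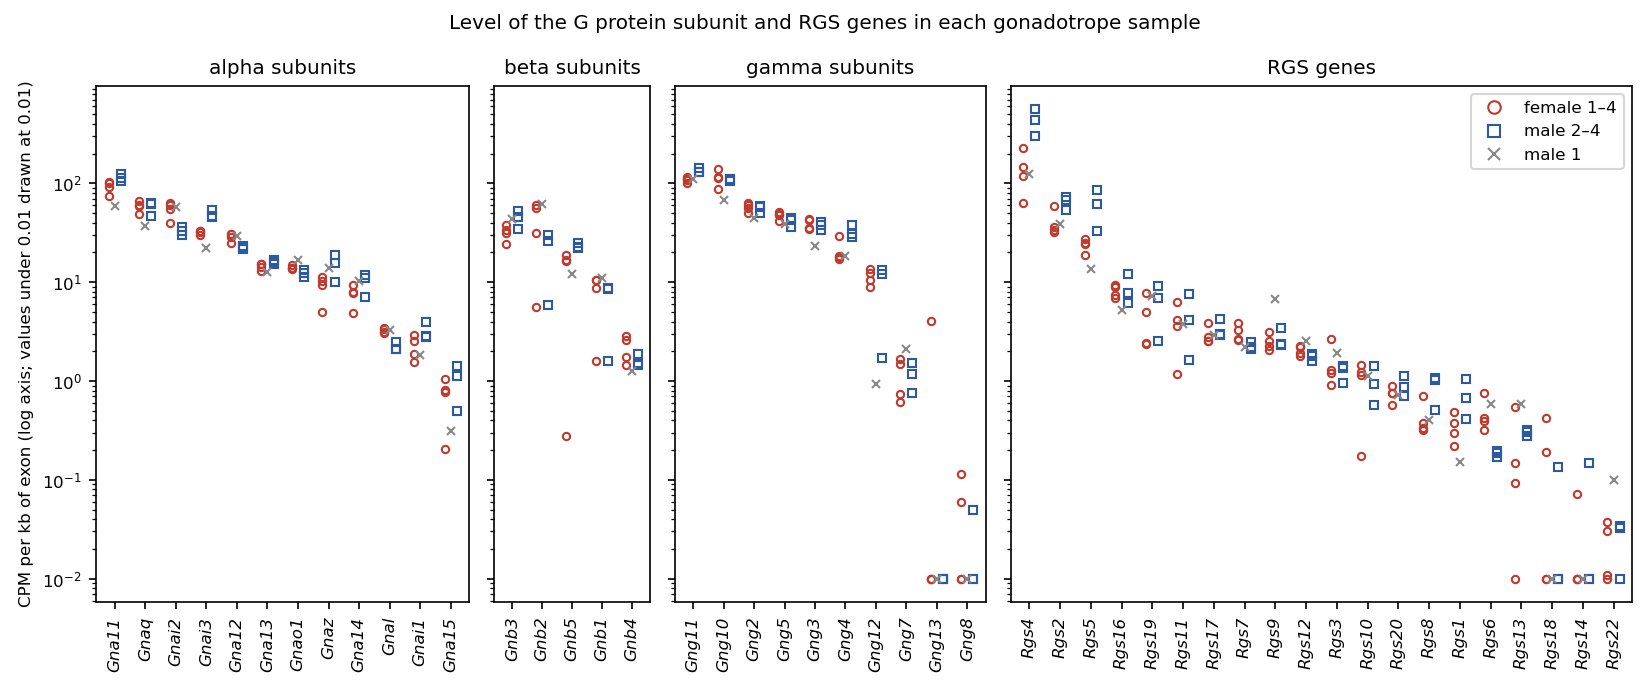
Level of each of the 47 members in each sample as CPM per kb of exon, on a log axis, by family and in order of the mean over 7 samples. Circles are females 1 to 4, squares males 2 to 4 and crosses male 1. Rgs4 is the highest member in 6 of the 8 samples and lies below Gng10 in females 2 and 3, where it ranks 5 and 2.

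Among the 12 alpha subunits of the list, Gna11 and Gnaq, which couple receptors to phospholipase C beta, had the highest levels per kb of exon. Gnas, which is not in the list, was at 2463 to 8012 CPM in the 8 samples, against 242 to 511 CPM for Gna11. These 2 ranges are not corrected for length. Gna11 had a mean level of 102 ± 16.4 CPM per kb (SD, n = 7) and Gnaq 58.0 ± 7.32 CPM per kb, and this difference was larger than either SD. Gnai2 followed at 45.2 ± 14.1 CPM per kb and Gnai3 at 39.2 ± 9.37 CPM per kb, and neither Gnaq and Gnai2 nor Gnai2 and Gnai3 differed beyond their spread. Gna12 (26.0), Gna13 (15.1), Gnao1 (13.3), Gnaz (11.5) and Gna14 (8.54 CPM per kb) held the middle of the order. Gnal at 2.81, Gnai1 at 2.65 and Gna15, known mainly from blood cells, at 0.842 CPM per kb were the lowest.

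Of the beta subunits, Gnb3 had 37.2 ± 9.32 CPM per kb and Gnb2 30.8 ± 21.6 CPM per kb, which did not differ beyond the spread, and Gnb5, the partner of the R7 subfamily of RGS proteins, had 17.5 ± 8.19 CPM per kb. Gnb1 was at 7.18 and Gnb4 at 1.93 CPM per kb. Of the gamma subunits, Gng11 (120.1 ± 14.7 CPM per kb) and Gng10 (112 ± 15.1 CPM per kb) were highest and did not differ beyond their spread. Gng2 (56.7), Gng5 (44.8), Gng3 (38.1), Gng4 (25.8) and Gng12 (10.3 CPM per kb) came next, each lower than the one before by more than its SD. Gng7 was at 1.13 CPM per kb. The locus of Gng10 in the count table also holds Dnajc25 and Gm20503, and that of Gnb2 holds Epo, so the split of reads in these loci is uncertain.

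Of the RGS genes, Rgs4 had a mean level of 264 ± 179.8 CPM per kb, a mean over samples that differed widely. Per sample it was at 146, 63.8, 120 and 228 CPM per kb in females 1 to 4, 436, 559 and 299 CPM per kb in males 2 to 4 and 125 CPM per kb in male 1. It was the highest of the 47 members in 6 of these 8 samples. In females 2 and 3 it ranked 5 and 2, and Gng10 was the highest, at 114 and 139.7 CPM per kb. Rgs2 (50.8 ± 16.8 CPM per kb) and Rgs5 (39.6 ± 25.2 CPM per kb) did not differ beyond their spread. Rgs16 was at 8.33 and Rgs19 at 5.17 CPM per kb, and the other 15 RGS genes were at or below 4.08 CPM per kb, the level of Rgs11. With the longest transcript as the length, Gnai2 and Gnaq changed places, as did Gnb3 and Gnb2, and Gng11 and Gng10. Gnao1 moved above Gna12 and Gna13, from 13.3 to 26.6 CPM per kb, and Gnai2 went from 45.2 to 77.2 CPM per kb, while the first 6 RGS genes kept their order.

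The members were then compared between the sexes in the fit over the 20152 genes that passed the filter, of which 42 were members. No member passed the adjusted p of 0.05 in edgeR's quasi-likelihood test, against 2.34% of all genes tested, and the median log2 fold change, males relative to females, was 0.10 over the members and -0.03 over all genes. An unadjusted p under 0.05 was reached by 13 of the 42 members, 8 higher in males and 5 higher in females, beside 19.9% of all genes. The 4 female samples lay apart from males 2 to 4 for 13 members, 7 of them with the males higher, beside 11.6% of all genes, and 6 with the females higher, beside 10.9% of all genes. DESeq2, run as an alternative, called 6 members (Rgs4, Rgs5 and Gnai3 higher in males, Rgs6, Gnai2 and Gnal higher in females) and 11.7% of the genes to which it gave an adjusted p. The labels do not say that the samples of a sex came from separate animals, so these p-values measure only the spread between the samples.

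**Figure D2:**
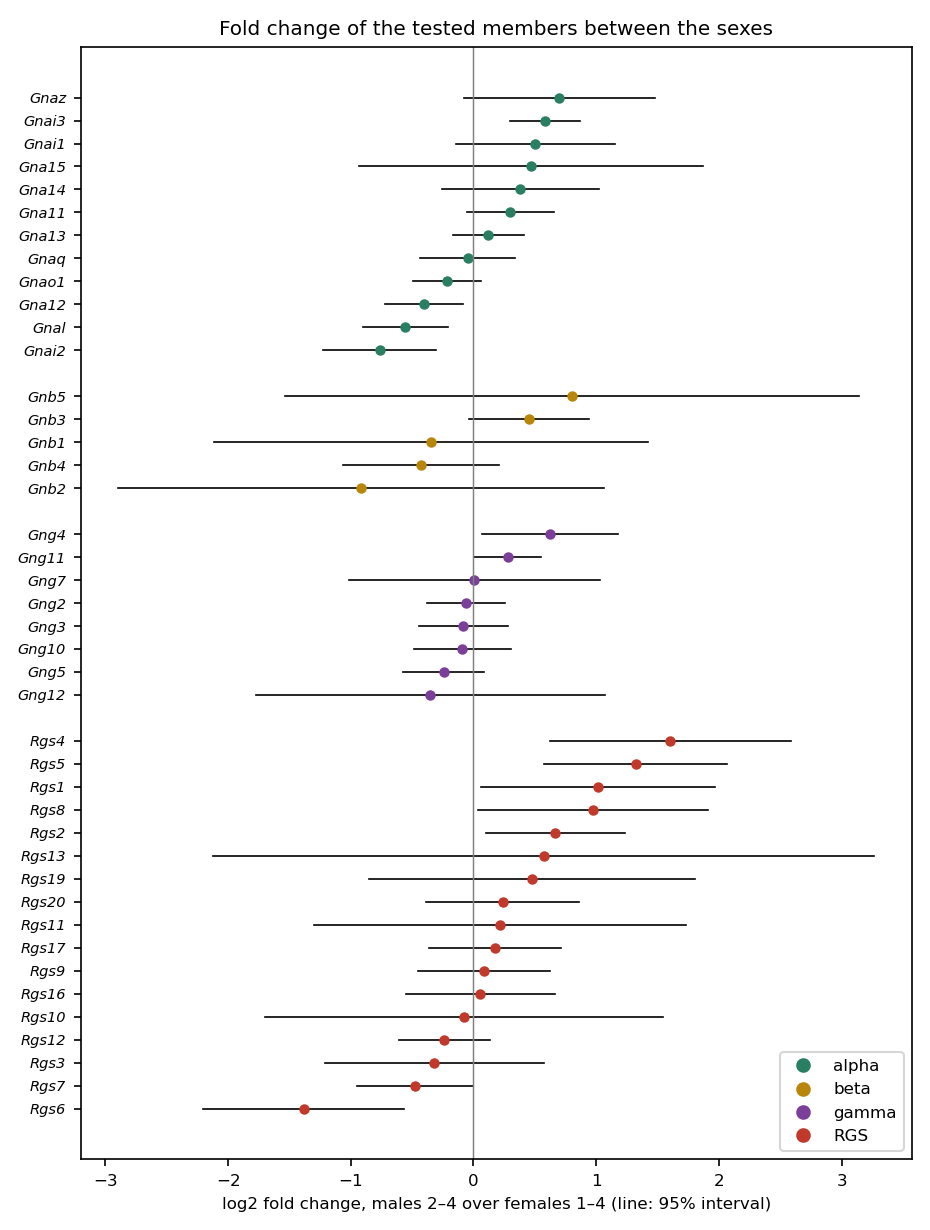
Log2 fold change of males 2 to 4 over females 1 to 4 for the 42 tested members, with the 95% interval as a line, grouped by family. Rgs4 has the highest value at 1.61 and Rgs6 the lowest at -1.38, and the beta subunits Gnb1, Gnb2 and Gnb5 have wide intervals.

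In the alpha subunits, 7 of 12 had a log2 fold change above 0 and 5 below 0, and none passed the adjusted threshold. Gna11 was at 302, 418, 414 and 373 CPM in females 1 to 4, at 511, 469 and 436 CPM in males 2 to 4 and at 242 CPM in male 1. The males lay above all females without male 1, which was below them. Its log2 fold change was 0.30 (SE 0.15, adjusted p = 0.332, edgeR), with an exact permutation p of 0.0857 (2-sided). Gnaq, the other subunit that couples to phospholipase C beta, was at 362, 407, 375 and 301 CPM in females, 394, 382 and 291 CPM in males 2 to 4 and 231 CPM in male 1. These ranges overlapped, and the log2 fold change was -0.05 (95% interval -0.43 to 0.34, adjusted p = 0.914; exact permutation p = 0.771). Gna14 and Gna15, of the same class, had log2 fold changes of 0.38 and 0.47, both with intervals that include 0.

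The inhibitory subunits Gnai2 and Gnai3 had log2 fold changes of opposite sign, neither past the adjusted threshold. They and Gnal are given in full although the naming rule does not reach them, and were picked after their values were seen. Gnai3 was at 109, 105, 106 and 97.6 CPM in females, 176, 151 and 149.6 CPM in males 2 to 4 and 73.2 CPM in male 1. Male 1 was thus below the females and the other males above them. The log2 fold change of Gnai3 was 0.58 (SE 0.12, adjusted p = 0.0582, edgeR), the lowest adjusted p of the 42 members, with an adjusted p of 6.54e-05 in DESeq2 and a range of 6.54e-05 to 0.693 over all 15 alternatives. Gnai2 was at 241, 206, 149 and 229.6 CPM in females, 113, 123 and 135 CPM in males 2 to 4 and 220.2 CPM in male 1, so male 1 lay among the females. Its log2 fold change was -0.76 (SE 0.20, adjusted p = 0.0899, edgeR), and its adjusted p was 0.0152 in DESeq2 and between 0.0152 and 0.609 over the alternatives. The ratio of Gnai2 to Gnai3 in CPM per kb, which does not depend on the scaling of a library, was 1.92, 1.70, 1.21 and 2.03 in females, 0.552, 0.703 and 0.781 in males 2 to 4 and 2.60 in male 1. The ratio was lower in males 2 to 4 than in every other sample. Which gene of the pair was the more abundant in these males depended on the length used, since with the longest transcript the ratio was 0.942, 1.20 and 1.33 in them and 2.06 to 4.43 in the other 5 samples.

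Gnal, a close relative of the stimulatory subunit Gnas, was at 35.2, 38.7, 33.8 and 37.2 CPM in females, 23.7, 23.3 and 28.0 CPM in males 2 to 4 and 36.8 CPM in male 1. The females were all higher, and male 1 lay among them. Its log2 fold change was -0.56 (SE 0.15, adjusted p = 0.0945, edgeR; 0.00417 in DESeq2, and up to 0.588 over the alternatives). Gna12 had a log2 fold change of -0.40 (adjusted p = 0.164) and Gnao1, the alpha subunit abundant in neurons, of -0.22 (adjusted p = 0.367, edgeR), and in both the females lay above males 2 to 4 without overlap. Gna13 had 0.12, with the males just above the females, Gnaz 0.70 and Gnai1 0.51, and none of these 3 passed. The direction for Gna13 turned to -0.09 with library size alone, a scaling that moved the median of all genes from -0.03 to -0.24 on the log2 scale.

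**Figure D3:**
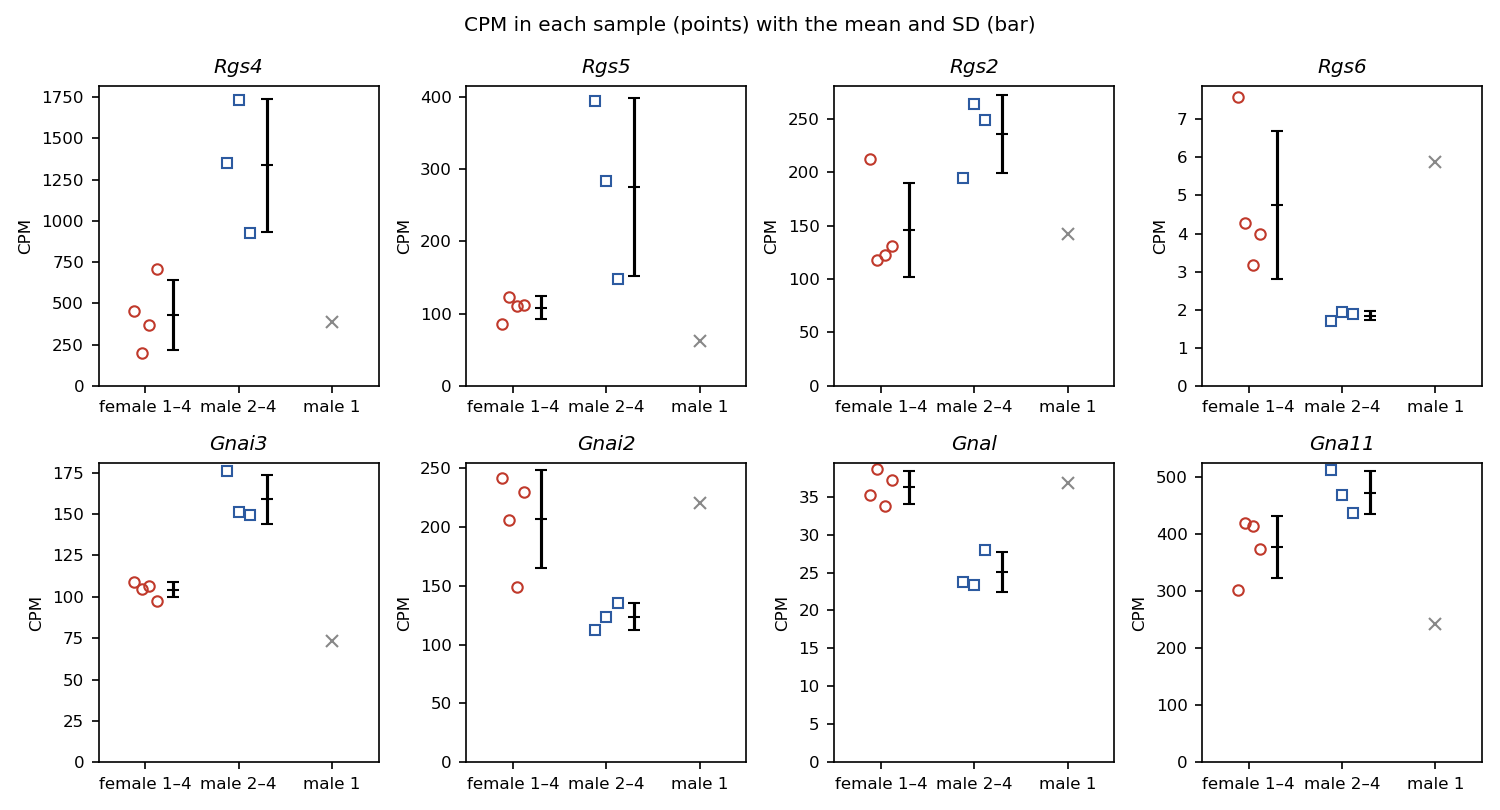
CPM of 8 members in each sample, with circles for females 1 to 4, squares for males 2 to 4, a cross for male 1, and bars for the mean and SD of the groups. Male 1 lies below or among the females in each panel, at 388 CPM for Rgs4 and at 73.2 CPM for Gnai3.

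Among the RGS genes, which end the signal of the alpha subunits, 12 of the 17 tested had a log2 fold change above 0 and 5 below 0, and the median was 0.21 against -0.03 over all genes. Rgs4 was at 453, 198, 371 and 706 CPM in females 1 to 4, at 1349, 1733 and 926 CPM in males 2 to 4 and at 388 CPM in male 1. Males 2 to 4 lay above all females, and male 1 lay within the female range. The mean of these males was 3.09 times the female mean, and the log2 fold change was 1.61 (SE 0.42, 95% interval 0.62 to 2.59), which did not pass (adjusted p = 0.0921, edgeR) but did in DESeq2 (adjusted p = 0.00771). The adjusted p was between 0.00771 and 0.403 over the 15 alternatives, and the exact permutation p was 0.0571, where 0.0286 is the smallest that 35 splits can give.

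Rgs5, the neighbour of Rgs4 on the chromosome, was at 85.5, 124, 111 and 112 CPM in females, 394, 284 and 148 CPM in males 2 to 4 and 62.1 CPM in male 1. The lowest of these males was above the highest female, and male 1 was below all the other samples. Its log2 fold change was 1.32 (SE 0.32, 95% interval 0.58 to 2.07, adjusted p = 0.0778, edgeR; exact permutation p = 0.0286). It was 1.63 without male 4 (adjusted p = 0.0410, edgeR) and 0.97 without male 2 (adjusted p = 0.214), the ends of the range over the alternatives, and the adjusted p was 0.00488 in DESeq2 and at most 0.528 over the alternatives. Rgs5 is also a known gene of pericytes. The 5 pericyte genes of the marker list (Pdgfrb, Cspg4, Kcnj8, Abcc9 and Notch3, none at 0) summed to 45.5 to 67.2 CPM in females, 52.7 to 67.2 CPM in males 2 to 4 and 45.2 CPM in male 1, so their ranges overlapped between the sexes.

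Rgs2, which binds Gq more than Gi, was at 212, 118, 123 and 131 CPM in females, 194, 263 and 249 CPM in males 2 to 4 and 142 CPM in male 1. Female 1 exceeded male 2, so the groups overlapped. The log2 fold change was 0.67 (SE 0.24, adjusted p = 0.186, edgeR; exact permutation p = 0.0857). The R4 genes Rgs1 and Rgs8 had log2 fold changes of 1.01 and 0.98 at levels of 1.05 to 7.23 and 3.06 to 10.4 CPM, with adjusted p of 0.226 and 0.236 in edgeR. Rgs1 is best known from lymphocytes.

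Rgs6, of the R7 subfamily that works in a complex with Gnb5, was the member with the lowest log2 fold change. It was at 7.58, 4.27, 3.18 and 3.98 CPM in females, 1.71, 1.95 and 1.88 CPM in males 2 to 4 and 5.88 CPM in male 1. Every female was above these males, and male 1 was within the female range. The log2 fold change was -1.38 (SE 0.35, 95% interval -2.21 to -0.56, adjusted p = 0.0867, edgeR; 0.00907 in DESeq2 and at most 0.701 over the alternatives; exact permutation p = 0.0286). Rgs7, of the same subfamily, was at 15.6 to 23.5 CPM in females, 12.8 to 15.0 CPM in males 2 to 4 and 13.4 CPM in male 1, with a log2 fold change of -0.48 (adjusted p = 0.245, edgeR). The other 2 genes of the subfamily, Rgs9 and Rgs11, overlapped between the sexes. Rgs9 was at 13.1 to 21.7 CPM in the 7 samples and at 42.8 CPM in male 1. The remaining tested RGS genes, Rgs3, Rgs10, Rgs12, Rgs13, Rgs16, Rgs17, Rgs19 and Rgs20, also overlapped, with adjusted p between 0.468 and 0.970 (edgeR).

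Most of these members did not keep males and females apart once male 1 was counted. Of the 13 members in which females and males 2 to 4 did not overlap, 1, Rgs7, still did not overlap with all 4 males, which is 7.69% of them. Over all genes tested, 1534 of 4536 did, or 33.8%. Male 1 lay outside the range of the other 7 samples in 19 of the 42 tested members, and in 39.9% of all genes. It was below the range in 12 members, or 28.6%, beside 18.9% of all genes, and above it in 7, or 16.7%, beside 21% of all genes. No member was outside that range by more than 2-fold at a mean of 1 CPM or more.

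Of the beta subunits, 2 of 5 had a log2 fold change above 0 and 3 below 0, and of the 8 gamma subunits tested, 3 were above and 5 below. Gnb3, whose mean per length was the highest of the beta subunits but which lay below Gnb2 in females 1 and 4 and in male 1, was at 64.7, 83.3, 89.1 and 98.6 CPM in females, 121, 90.2 and 138 CPM in males 2 to 4 and 116 CPM in male 1. Male 3 lay within the female range. The log2 fold change was 0.45 (SE 0.21, adjusted p = 0.288, edgeR; exact permutation p = 0.114). Gnb2 was at 193, 106, 18.9 and 204 CPM in females, 19.9, 88.4 and 103 CPM in males 2 to 4 and 210.5 CPM in male 1. The groups overlapped, with the lowest sample of each sex far below the rest. The log2 fold change was -0.92 (SE 0.84, adjusted p = 0.623, edgeR; exact permutation p = 0.486). Gnb4 had a log2 fold change of -0.43 (adjusted p = 0.448, edgeR).

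Gng11 was at 102, 92.8, 99.96 and 107 CPM in females, 121, 120.4 and 130.0 CPM in males 2 to 4 and 101 CPM in male 1. The males lay above all females except for male 1, which lay among them. The log2 fold change was 0.28 (SE 0.12, adjusted p = 0.244, edgeR; exact permutation p = 0.0286). Gng11 is known from endothelial cells, and the 5 endothelial genes of the marker list, none at 0, summed to 408 to 529 CPM in females, 413 to 549.5 CPM in males 2 to 4 and 693 CPM in male 1. Gng10 was at 116, 149, 184 and 152 CPM in females, 146, 144 and 140.3 CPM in males 2 to 4 and 89.8 CPM in male 1, and the groups overlapped, with a log2 fold change of -0.09 (SE 0.17, adjusted p = 0.832, edgeR; exact permutation p = 0.600). Gng4 had a log2 fold change of 0.63 (adjusted p = 0.204) and Gng5 of -0.24 (adjusted p = 0.404, edgeR). Gng2, at 219 to 276 CPM in females and 219 to 261 CPM in males 2 to 4, Gng3 and Gng7 overlapped between the sexes, with adjusted p between 0.827 and 0.997 (edgeR).

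In 4 members the count of 1 or 2 libraries lay far below the others, a pattern that was seen in the data and then counted. Gnb5 was at 0.866 CPM in female 4 and at 38.0 to 76.9 CPM in the other 7 samples. The same held for the values of Gnb2 in female 3 and male 2 given above. Gnb1 was at 6.87 CPM in female 2 and 6.84 CPM in male 2, against 36.5 to 46.8 CPM, and Gng12 was at 4.43 CPM in male 1 and 8.07 CPM in male 4, against 42.5 to 63.7 CPM. Each of these values was over 5 times below the median of its gene, and they affected the sexes alike in number of libraries for Gnb1 and Gnb2 but not for Gnb5 or Gng12.

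Among the protein-coding entries with a median of at least 10 CPM, 1382 of 9630, or 14.4%, had such a library, and among the members 4 of 33, or 12.1%. The share per library was between 2.46% and 3.64% of entries, with 3.64% in male 1. Gnb5, with an edgeR log2 fold change of 0.80 (SE 0.99), was at 51.2 to 58.8 CPM in the other 3 females and 69.7 to 76.9 CPM in males 2 to 4, which is a log2 ratio of means of 0.42. Gnb1 had a log2 fold change of -0.35 (SE 0.75), and without the 2 low libraries it was at 37.4 to 45.4 CPM in females and 36.5 to 36.9 CPM in males. Gnb2 without its low libraries was at 106 to 204 CPM in females and 88.4 to 103 CPM in males. Gng12 had -0.35 (SE 0.60), and the log2 ratio of its means was 0.16 without male 4. Whether the transcripts or their assignment to a gene differed in these libraries was not tested.

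**Figure D4:**
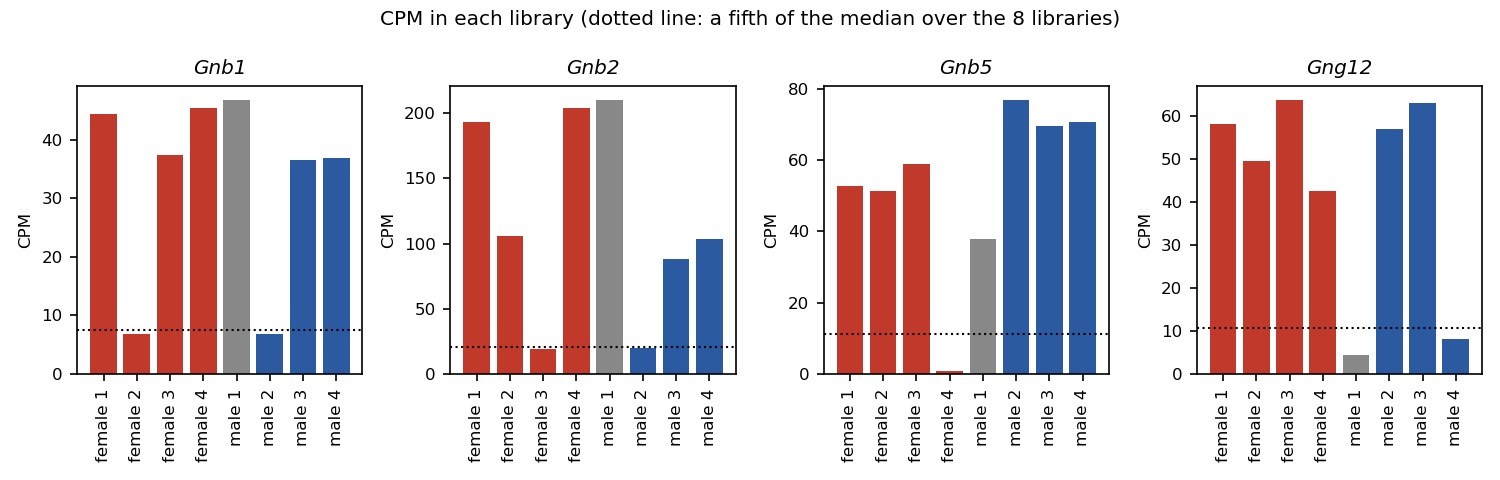
CPM of Gnb1, Gnb2, Gnb5 and Gng12 in each of the 8 libraries, with females in red, male 1 in grey and males 2 to 4 in blue, and a dotted line at the median divided by 5. The low bars are at 0.866 CPM for Gnb5 in female 4 and between 4.43 and 19.9 CPM for the other genes.

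To describe the make-up of the families, CPM per kb was summed within each sample over the listed members, so that the alpha sum does not hold Gnas, and no test was made. Gq class genes made up 50.0% ± 4.19 of the alpha sum in females (SD, n = 4), 54.6% ± 2.22 in males 2 to 4 (n = 3) and 40.4% in male 1, and Gi/o class genes 35.3% ± 3.35, 33.3% ± 1.51 and 42.6%. The 2 genes of the G12 class made up 13.7% ± 0.836 in females, 11.4% ± 0.606 in males 2 to 4 and 15.8% in male 1, above every female. The Gi/o sum overlapped between the sexes, at 31.3% to 38.2% in females and 32.1% to 35.015% in males 2 to 4, while its largest parts did not overlap. Gnai2 took 12.7% to 20.8% of the alpha sum in females and 8.43% to 11.5% in males 2 to 4, and Gnai3 took 9.52% to 10.9% and 13.5% to 15.3%.

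The R4 subfamily made up 90.1% ± 5.34 of the RGS sum in females, 95.9% ± 1.24 in males 2 to 4 and 87.0% in male 1. Rgs4 alone took 58.2%, 39.6%, 56.6% and 71.9% in females 1 to 4, 71.5%, 77.0% and 68.1% in males 2 to 4 and 58.4% in male 1, so female 4 overlapped the males. Rgs2 took 17.7% ± 5.14 in females and 11.5% ± 3.66 in males, and Rgs5 10.9% ± 4.37 and 10.1% ± 3.63. The R7 subfamily took 4.69% ± 2.68 in females, 1.73% ± 0.750 in males 2 to 4 and 6.18% in male 1, and the R12 subfamily 1.39% ± 0.434, 0.500% ± 0.178 and 1.71%. The sums behind these shares overlapped between the sexes. The R7 sum was 9.86 ± 2.79 CPM per kb in females and 9.62 ± 3.15 CPM per kb in males 2 to 4, and the R12 sum 3.07 ± 0.452 and 2.79 ± 0.299 CPM per kb. The R4 sum, the larger part of the denominator, was 214 ± 70.0 CPM per kb in females, 569 ± 145 CPM per kb in males 2 to 4 and 187 CPM per kb in male 1, which lay within the female range. The ratio of Rgs4 to Rgs2 in CPM per kb was 1.97 to 6.31 in females and 4.36 to 8.14 in males 2 to 4, which overlapped.

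**Figure D5:**
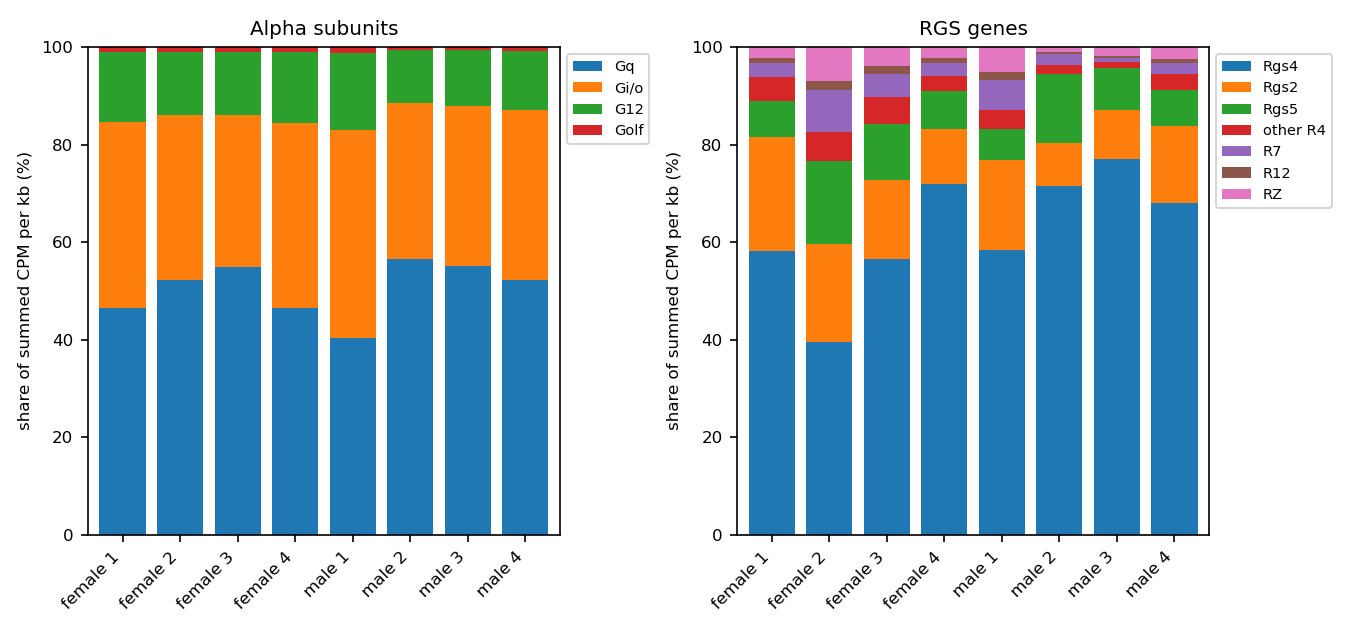
Share of the summed CPM per kb of the alpha subunits (left) and of the RGS genes (right) in each sample, in percent, stacked by class, with Rgs4, Rgs2 and Rgs5 drawn apart from the other R4 genes. The Gq class takes between 40.4% and 56.5% of the alpha sum and Rgs4 between 39.6% and 77.0% of the RGS sum.

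Around the members, a list of 40 genes of the same pathway held the receptor, effectors, receptor kinases, arrestins, chaperones and other genes with an RGS domain. Of the 34 that passed the filter, 1 rose in males and 1 was higher in females, beside 2.34% of all genes tested. Plcb1, a phospholipase C beta of the kind that Gq activates, was at 10.3, 9.72, 9.30 and 13.6 CPM in females, 24.4, 26.3 and 23.2 CPM in males 2 to 4 and 8.82 CPM in male 1. The males were all above the females except for male 1, which was below them, and the log2 fold change was 1.17 (SE 0.18, adjusted p = 0.0346, edgeR). Of the other 3 phospholipase C beta genes of the list, Plcb4 was at 6.68, 93.9, 109 and 114 CPM in females, 77.2, 65.2 and 6.79 CPM in males 2 to 4 and 109.6 CPM in male 1. In CPM, with no correction for length, it was thus above Plcb1 in 6 of the 8 samples. Its values in female 1 and male 4 lay far below the rest. With these libraries included, its log2 fold change was -0.73 (SE 1.03, adjusted p = 0.768, edgeR). Plcb3 had 0.74 (SE 0.76, adjusted p = 0.668, edgeR), and Plcb2 was at most 0.622 CPM in any sample. Axin2, a Wnt feedback gene with an RGS domain, was at 27.7, 23.7, 23.0 and 18.1 CPM in females, 11.5, 11.6 and 11.7 CPM in males 2 to 4 and 16.5 CPM in male 1. All females were above all 4 males, and the log2 fold change was -1.02 (SE 0.18, adjusted p = 0.0442, edgeR). Neither gene passed with all 8 samples (adjusted p = 0.373 and 0.177, edgeR), with no filter beyond 1 count (0.0526 and 0.0731) or with the replicate block (0.243 and 0.247). On leaving out 1 sample, the adjusted p of Plcb1 was 0.0290 without female 4 and 0.0641 to 0.126 without any other, and that of Axin2 was 0.0511 to 0.146.

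Of the others, Gnrhr, the receptor for gonadotropin-releasing hormone, was at 661 to 1562 CPM in females, 1258 to 2169 CPM in males 2 to 4 and 476 CPM in male 1, which overlapped, with a log2 fold change of 0.74 (SE 0.36, adjusted p = 0.318, edgeR). Arrb2, an arrestin that binds receptors once they are phosphorylated, was at 4.96 to 26.3 CPM in females, 1.74 to 2.06 CPM in males 2 to 4 and 5.05 CPM in male 1, with a log2 fold change of -3.00 (SE 0.60, adjusted p = 0.0530, edgeR). The receptor kinases Grk5 and Grk3 had log2 fold changes of 0.88 (adjusted p = 0.0776) and -0.98 (adjusted p = 0.118, edgeR). These 4 genes, like the other phospholipase C beta genes, did not pass the test and were picked after their values were seen.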

How the data were processed

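RNA of EGFP-positive pituitary cells was sequenced for 8 samples, and the authors deposited unnormalized counts per gene in one table. Per the methods of the study, reads were trimmed with cutadapt, mapped to mm10 (GRCm38) with STAR and counted with featureCounts, and the annotation was not given in the sources used here. Of the 55523 entries, 28933 carry an MSTRG locus name, the form that StringTie gives to assembled loci. The kit does not mark strand, so reads of overlapping antisense genes cannot be told apart.

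CPM was computed with edgeR TMM factors over 8 samples and divided by the union exon length of GENCODE M21. Males 2 to 4 and females 1 to 4 were fitted with edgeR (version 4.0.16, R 4.3.3), quasi-likelihood, filterByExpr and Benjamini-Hochberg adjustment at 0.05. The standard error was the absolute log2 fold change divided by the square root of F. Named genes also had a two-sided exact permutation test of mean log2(CPM + 1). DESeq2 (version 1.42.0), upper-quartile scaling, library size alone, other filters, all 8 samples, a replicate block, robust dispersion and leaving out each sample were alternatives. For levels and shares they were library size, DESeq2 size factors, all 4 males, the longest transcript and a minimum of 5 CPM. The fit was tested on simulated data. Python was 3.11.15, with scipy 1.17.1 and pandas 2.3.3.

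Members named with all samples pass the threshold, do not overlap with a log2 fold change of at least 1, are among the 2 highest per length in a family, or have male replicate 1 outside the other 7 by over 2-fold with a mean of at least 1 CPM. Pathway genes are named where they pass the threshold. Members and gene lists were chosen with earlier results of these data known.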

Additional observations from a re-analysis of the deposited data

Results flagged for a closer look

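In groups of 4 samples, 12 of the 92 groups of members with at least 3 counts in a sample had 1 sample far from the other 3 by Dixon's criterion, and chance flags about 1 in 20 groups. Male replicate 1 was that sample in 3 of them. Gng10 was at 89.8 CPM there and 140.3 to 146 CPM in males 2 to 4, Rgs6 at 5.88 CPM against 1.71 to 1.95 CPM, and Rgs13 at 0.965 CPM against 0.459 to 0.524 CPM.

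In males, Rgs17 was at 34.9 CPM in male replicate 3 and at 24.0 to 24.5 CPM in the remaining males. Rgs18 at 0.272 CPM and Rgs14 at 0.622 CPM were counted in male replicate 2 and were 0 in the other males.

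In females, Gnb5 was at 0.866 CPM in replicate 4 against 51.2 to 58.8 CPM, and Gng4 at 98.3 CPM in replicate 4 against 56.9 to 61.6 CPM. Rgs2 was at 212 CPM in replicate 1 against 118 to 131 CPM, the sample that makes the sexes overlap for this gene. Rgs8 was at 6.87 CPM in replicate 2 against 3.06 to 3.64 CPM. Gng13 at 3.15 CPM and Rgs14 at 0.306 CPM were counted in replicate 3 and were 0 in the other females.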

How the results depend on the processing

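The alternatives gave 434 values of the log2 fold change for the 29 members whose fold change is given above. Of these values, 417 kept their direction and side of the threshold, 11 passed it and 6 reversed, and the cause was not tested. The other tested members are not in this count. Among them Gng2, Gng7, Rgs3, Rgs9, Rgs10, Rgs11, Rgs16 and Rgs17 took both signs over the alternatives, such as -0.423 to 0.614 for Rgs11. Gng3, Rgs12, Rgs13, Rgs19 and Rgs20 kept 1 sign. Among the 29, Gna13 reversed to -0.089 with library size alone. On leaving out a sample, Gnaq ran from -0.128 to 0.080 (positive without female replicate 2 or male replicate 4), Gnb1 from -0.661 to 0.112 (positive without male replicate 2), Gng10 from -0.176 to 0.038 (positive without female replicate 3) and Gng12 from -0.737 to 0.143 (positive without male replicate 4). The members called, 0 in the main setting, were 6 with DESeq2, 2 (Gnai2 and Gnal) with library size alone, 1 (Gnai3) with at least 10 counts in every sample, 1 (Gnai3) with robust dispersion and 0 to 1 on leaving out a sample, the 1 being Rgs5 without male replicate 4. Genes called among all, 471 (198 higher in males), were 2329 with DESeq2, 808 (133 higher in males) with library size alone, 177 with no filter beyond 1 count, 67 with all 8 samples and 88 to 171 on leaving out a sample. Pathway genes called, 2, were 5 with DESeq2, 0 with no filter or all 8 samples, and 0 to 1 on leaving out a sample. With the replicate block, 0 genes, 0 members and 0 pathway genes were called. An unadjusted p under 0.05 (edgeR) was reached there by 2954 genes, 11 members and 5 pathway genes. Deviations of same-numbered samples correlated at -0.0192 to -0.000226, and those of differently numbered samples at -0.0408 to 0.0492, with male replicate 1 left out. Whether same-numbered samples were prepared together cannot be told from the labels or from these correlations. The 35 shares of a class include those with library size or DESeq2 size factors, which cannot change a share within a sample. By more than 1 SD, 9 moved, all of them with the longest transcript or all 4 males. Each male share examined moved with all 4 males. With the longest transcript, the Gi/o share in females went from 35.3% to 41.4%. With 5 CPM as the minimum, 31 members and not 38 were detected in each of the 7 samples. With the longest transcript, the ratio of Gnai2 to Gnai3 in males 2 to 4 went from 0.552 to 0.781 up to 0.942 to 1.33. The 5 members left untested had at most 4 counts (Gng8), 13 (Rgs22), 16 (Rgs14), 28 (Rgs18) and 103 (Gng13, in female replicate 3 alone) in any sample, and no difference between the sexes could be given for them at this depth.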
